A study of Mus musculus with 10 samples.

Results

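The 8 genes Tcf7l2, Lef1, Foxp2, Gbx2, Prox1, Rora, Pou4f1 and Meis2 encode transcription factors that mark divisions of the developing and adult diencephalon, the part of the brain that holds the thalamus and the habenula. They were taken by symbol and make up 8 of the 33502 genes in the count table. All 8 were counted in nuclei from the paraventricular thalamus (PVT), a midline nucleus, and from the tissue around it that a punch also takes. The mice were C57BL/6J, aged 12 weeks, with no treatment or transgene named, and the methods describe a pool of 4 mice for each sample of the first 4. Of the 10 libraries, 6 are titled female. The titles of the other 4 give no sex, and the deposited metadata mark their nuclei as male, so they are called male here. The authors kept 20503 nuclei, sorted them into 16 clusters and named 8 cell types, of which 10410 nuclei are neurons in 8 clusters.

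Tcf7l2 and Lef1 are relatives that bind DNA at the end of the canonical Wnt pathway, where the co-activator beta-catenin turns them from repressors into activators. Tcf7l2 is a lasting mark of thalamic and habenular neurons, Lef1 and Gbx2 are known from thalamic progenitors and young relay neurons, and Rora is a nuclear receptor of sensory relay neurons. Foxp2 is a forkhead repressor of the posterior and medial thalamus, Prox1 is a homeodomain factor also needed in lymphatic vessels and in the oligodendrocyte lineage, Pou4f1 (Brn3a) sets the identity of the medial habenula, and Meis2 is a TALE homeodomain factor of many GABAergic neurons.

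In the RefSeq annotation of GRCm38.p6, Tcf7l2 lies on chr19:55741797-55933659, Lef1 on chr3:131110297-131224357, Foxp2 on chr6:14901349-15441977, Gbx2 on chr1:89927962-89931176, Prox1 on chr1:190118035-190170827, Rora on chr9:68653404-69388246, Pou4f1 on chr14:104461675-104468118 and Meis2 on chr2:115861264-116067537. Gbx2, Prox1, Pou4f1 and Meis2 are on the minus strand and the others on the plus strand. RefSeq promoter windows of GRCm38.p6, each 250 bases before to 50 after a start site, were found for 7 of the 8 genes, 12 windows in all. Lef1 is shown because its levels in Adarb2-marked neurons were above those of every other neuron group and because it stepped down among the C1ql3-led clusters. Its upstream start and an internal one are printed, with the upstream start of its relative Tcf7l2. Capitals mark the letters TCAAAG, the core that TCF/LEF proteins such as the products of Tcf7l2 and Lef1 bind, and TGACAG, a MEIS core, on either strand.
Lef1 upstream start, chr3:131110047-131110346, plus strand: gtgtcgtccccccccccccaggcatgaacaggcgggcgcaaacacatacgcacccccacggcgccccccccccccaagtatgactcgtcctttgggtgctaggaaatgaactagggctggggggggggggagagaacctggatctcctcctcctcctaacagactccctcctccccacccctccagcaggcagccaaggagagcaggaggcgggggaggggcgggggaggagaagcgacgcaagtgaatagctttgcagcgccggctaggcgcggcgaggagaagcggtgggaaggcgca
Lef1 internal start, chr3:131156044-131156343, plus strand: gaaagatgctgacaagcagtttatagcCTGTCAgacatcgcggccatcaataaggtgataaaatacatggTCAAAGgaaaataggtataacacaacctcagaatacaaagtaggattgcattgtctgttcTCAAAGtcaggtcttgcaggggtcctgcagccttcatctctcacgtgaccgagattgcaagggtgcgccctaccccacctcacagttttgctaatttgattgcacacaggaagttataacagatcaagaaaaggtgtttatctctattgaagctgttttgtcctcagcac
Tcf7l2 upstream start, chr19:55741560-55741859, plus strand: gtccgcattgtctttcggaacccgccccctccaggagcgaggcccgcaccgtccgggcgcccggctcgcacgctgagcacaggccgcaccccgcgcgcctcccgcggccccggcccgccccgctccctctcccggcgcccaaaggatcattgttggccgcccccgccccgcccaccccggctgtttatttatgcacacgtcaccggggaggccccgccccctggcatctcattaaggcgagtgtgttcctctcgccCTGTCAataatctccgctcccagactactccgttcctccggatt
The upstream Lef1 window held neither core, the internal window held 2 TCAAAG cores and 1 MEIS core, and the Tcf7l2 window held 1 MEIS core. TCAAAG, searched on both strands, was present in 2 of the 12 member windows, of Lef1 and Meis2, and in 16.003% of all 32851 windows. TGACAG was present in 3 of the 12 member windows, of Lef1, Pou4f1 and Tcf7l2, and in 19.2% of all windows. The ROR core AGGTCA, the forkhead core TGTTTAC and the homeodomain core TAATTA were in no member window and in 16.3%, 3.65% and 5.29% of all windows. The POU4F sequence ATAATTAAT was in none either and in 0.274% of all windows. These matches are letters in a window and were not tied to binding.

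Neurons were split by the regional markers C1ql3, Adarb2, Lpl, Gad2 and Nwd2, which the study ties to the PVT, the mediodorsal nucleus, the intermediodorsal nucleus, GABAergic neurons of a neighbouring region and the habenula. Each of 10307 neurons with more than 1000 genes was given to the marker with the highest scaled level if that marker had at least 2 UMIs. The split gave 4294 C1ql3-marked, 1694 Adarb2-marked, 61 Lpl-marked, 264 Gad2-marked and 928 Nwd2-marked neurons, and left 3066 unassigned. Other regional genes stood as follows, as means over libraries of UMIs per 1000000 (CPM, scaled by trimmed means). Cdh24, a second gene of the intermediodorsal nucleus, was at 42.1 in the Lpl-marked neurons, 21.1 in the Adarb2-marked and 5.24 in the C1ql3-marked ones. The Nwd2-marked neurons had Tac2 at 938, Chat at 186 and Chrnb4 at 91.9, all 3 of which are genes of the medial habenula. The Gad2-marked neurons were mixed: Gad1 was at 35.4 and Slc32a1 at 43.8, but Slc17a6, the glutamate transporter, was at 344, and only 45.5% of them were in the deposited cluster led by Gad2. The corresponding shares were 92.4% for C1ql3, 74.6% for Adarb2, 73.8% for Lpl and 87.7% for Nwd2. At least 10 nuclei were present in 10 libraries for C1ql3, Adarb2 and Nwd2, in 8 for Gad2 and in 2 for Lpl.

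The libraries ranged from 875 to 7213 nuclei and from 5119927 to 55956635 UMIs. The median neuron had 12586 to 21085 UMIs in the male libraries and 5666 to 9770 in the female ones, which do not overlap. In all, 1555 genes with at least 50 UMIs in the male libraries had none in the female ones, and 509 the reverse, so the 2 sets were counted over different gene sets. Of the cell barcodes, 46 occurred in more than 1 library. In summed counts, fewer cells expressing a gene and less RNA per cell cannot be told apart.

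Lef1 was highest in the Adarb2-marked neurons and low in the C1ql3- and Gad2-marked ones. In the 10 Adarb2-marked sums, Lef1 ran from 455 to 692 CPM with a median of 525, and in the 10 C1ql3-marked sums from 57.6 to 96.0 with a median of 74.5. The lowest Adarb2-marked library was thus above the highest library of every other group. The Lpl-marked sums held 165 and 217 CPM, and the Nwd2-marked sums ran from 78.2 to 293 with a median of 158. The Gad2-marked sums had a median of 65.9 CPM and ran from 9.97 to 81.6, which overlapped the C1ql3-marked range. With edgeR's quasi-likelihood test, Lef1 was higher in Adarb2-marked neurons than in the mean of the other 4 groups by 2.36 ± 0.14 (log2 fold change ± SE, adjusted p = 1.2e-18). It was lower in C1ql3-marked neurons, at -1.25 ± 0.15 (adjusted p = 1.0e-08), and lower in Gad2-marked neurons, at -2.12 ± 0.23 (adjusted p = 2.8e-09). In C1ql3-marked minus Adarb2-marked neurons the log2 difference of Lef1 was -2.89 ± 0.15 (edgeR adjusted p = 1.4e-21). In that direct comparison Gbx2, Prox1 and Foxp2 were higher in the C1ql3 group, against 14.8% of all genes. Lef1, Rora, Meis2 and Pou4f1 were lower, against 9.74%. Meis2 was at -3.59 ± 0.45 and Pou4f1 at -0.95 ± 0.35 (edgeR adjusted p = 6.4e-09 and 0.027). Most of these sums held few UMIs, but male library 3 held 224 Meis2 UMIs in the Adarb2 group. Of the Adarb2-marked nuclei, 30 lay in the Nwd2-led deposited cluster 6. In nuclei whose marker and deposited cluster agree, Pou4f1 was at 0.742 ± 0.58 CPM in the C1ql3 and 0.806 ± 0.72 in the Adarb2 group (SD, n = 10). Meis2 was at 0.695 ± 0.61 and 1.21 ± 1.05 there. C1ql3- and Gad2-marked neurons did not pass the test against each other (log2 difference 0.70 ± 0.25, edgeR adjusted p = 0.090). Lpl- and Nwd2-marked neurons, neighbours in the order, differed by 0.12 ± 0.33 on the log2 scale, which did not pass either.

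Per nucleus the order was alike. When every nucleus was thinned to 2000 UMIs, a Lef1 UMI was seen in 52.0% ± 7.19 (SD, n = 10) of Adarb2-marked neurons and in 27.2% ± 8.56 of Nwd2-marked ones. The share was 10.9% ± 1.90 of C1ql3-marked neurons and 2.63% ± 1.56 of astrocytes. Without thinning the Adarb2- and C1ql3-marked shares were 79.6% and 30.5%.

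**Figure D1:**
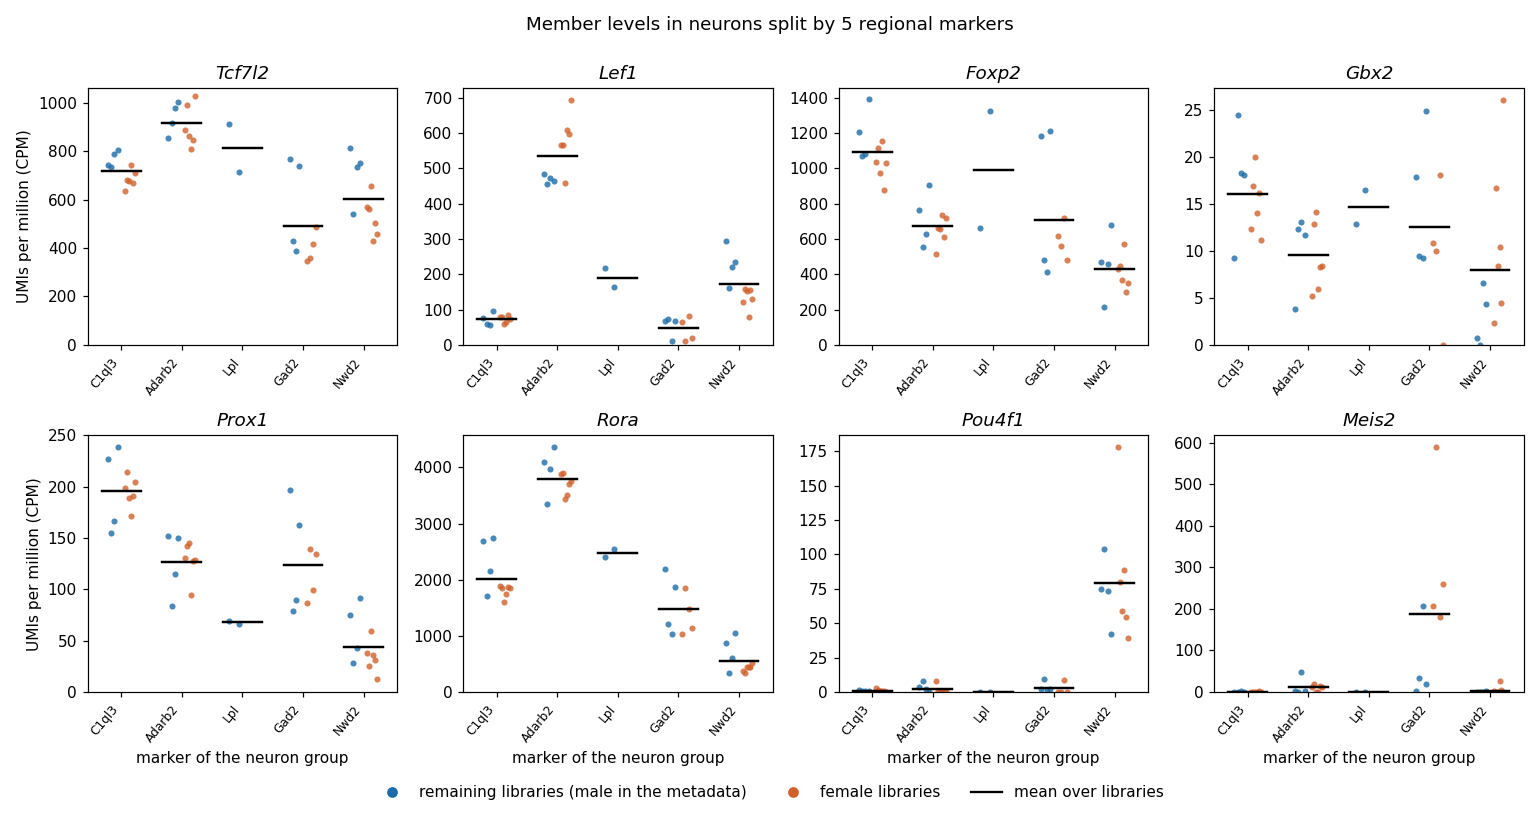
Levels of the 8 genes, in UMIs per 1000000 (CPM), in neurons split by the 5 markers on the x axis. Each point is 1 library, blue for the 4 male and orange for the 6 female ones, and each bar is the mean over libraries; Lef1 and Rora stand highest in the Adarb2 group, Foxp2 and Prox1 in the C1ql3 group, Pou4f1 in the Nwd2 group and Meis2 in the Gad2 group.

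Rora was also highest in the Adarb2-marked neurons, and it was lowest in the Nwd2-marked ones. The Adarb2-marked sums ran from 3349 to 4370.1 CPM with a median of 3822, above all libraries of the other groups. C1ql3-marked neurons held 1607 to 2738 CPM (median 1865), the Lpl-marked sums 2406 and 2551, the Gad2-marked sums 1030.2 to 2194 (median 1348) and the Nwd2-marked sums 331 to 1057 (median 448). Nwd2-marked neurons had the lowest Rora of all groups in 10 of 10 libraries. Rora was higher in Adarb2-marked neurons than in the other groups by 1.53 ± 0.10 on the log2 scale (edgeR adjusted p = 6.7e-18) and lower in Nwd2-marked neurons, at -2.05 ± 0.11 (edgeR adjusted p = 2.1e-21).

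Tcf7l2 was counted in every library of every group, with the highest levels in Adarb2-marked neurons. Its CPM ran from 636 to 806 in C1ql3-marked neurons (median 721) and from 810.4 to 1025 in Adarb2-marked ones (median 902), so that these groups, with means of 718 and 917, did not overlap. The Lpl-marked sums held 715 and 910.4 CPM, the Nwd2-marked sums 427 to 814 (median 567) and the Gad2-marked sums 347 to 766 (median 423). Adarb2-marked neurons were highest in 10 of 10 libraries, with a log2 difference from the other groups of 0.55 ± 0.09 (edgeR adjusted p = 1.3e-06). Gad2-marked neurons were lower, at -0.59 ± 0.10 (edgeR adjusted p = 4.5e-05). Both are close to the 0.5 required for a call. The first fell to between 0.41 and 0.48 and the second to between -0.48 and -0.45 under 4 of the alternatives each, with adjusted p still under 0.05 in edgeR or DESeq2.

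Foxp2 and Prox1 were highest in the C1ql3-marked neurons. Foxp2 ran there from 879.9 to 1396 CPM with a median of 1075, was higher than in the other groups by 0.80 ± 0.09 on the log2 scale (edgeR adjusted p = 1.9e-09), and was the highest group in 10 of 10 libraries. Its Adarb2-marked levels were 517 to 907 CPM (median 662), its Gad2-marked levels 415 to 1211 (median 588) and its Lpl-marked levels 663 and 1325. Foxp2 was lowest in Nwd2-marked neurons, at 215 to 681 CPM (median 438), with a log2 difference of -0.92 ± 0.10 (edgeR adjusted p = 9.9e-11). The C1ql3- and Nwd2-marked ranges did not overlap for Foxp2.

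Prox1 had 155 to 239 CPM in C1ql3-marked neurons (median 195) and 83.4 to 152 in Adarb2-marked neurons (median 129.7), again without overlap. The Gad2-marked sums ran from 78.8 to 197 CPM (median 117), the Lpl-marked sums held 66.0 and 69.6, and the Nwd2-marked sums ran from 13.04 to 91.3 (median 37.4). Prox1 was higher in C1ql3-marked neurons by 1.22 ± 0.09 on the log2 scale (edgeR adjusted p = 2.1e-14) and lower in Nwd2-marked neurons, at -1.27 ± 0.13 (edgeR adjusted p = 8.8e-12). The antisense gene Prox1os overlaps the 5′ end of Prox1. Like Prox1 it was higher in C1ql3-marked than in Nwd2-marked neurons, at 61.1 ± 9.29 and 12.8 ± 7.78 CPM (SD, n = 10). The 2 genes did not go together in every group. Prox1os was at 42.1 ± 25.5 CPM (n = 8) in Gad2-marked and 19.7 ± 3.68 (n = 10) in Adarb2-marked neurons, where the Prox1 medians were 117 and 129.7. No source states whether counting used strand. Without strand, only reads in the stretch that the 2 genes share, chr1:190170296-190170714 in the GENCODE annotation, could not be told apart.

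Gbx2 was low in every group. Its median was 16.5 CPM in C1ql3-marked neurons (9.32 to 24.5), 10.1 in Adarb2-marked (3.85 to 14.1), 10.4 in Gad2-marked (0 to 24.9) and 5.56 in Nwd2-marked ones (0 to 26.1), and the Lpl-marked sums held 12.9 and 16.5. All ranges overlapped. In the fit Gbx2 was higher in C1ql3-marked neurons by 0.82 ± 0.20 on the log2 scale (edgeR adjusted p = 0.0016) and lower in Nwd2-marked neurons, at -1.44 ± 0.34 (edgeR adjusted p = 0.00045). The counts behind these values were 998 UMIs in the C1ql3 group and 35 in the Nwd2 group.

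Pou4f1 belonged to the Nwd2-marked neurons. Its sums there ran from 39.1 to 178 CPM with a median of 74.1, on 685 UMIs, and every library was above every library of the other groups, whose highest value was 9.46 CPM. Medians elsewhere were 0.916 CPM in C1ql3-marked, 1.06 in Adarb2-marked and 2.03 in Gad2-marked neurons, and no UMI was counted in the Lpl-marked sums. Because a fold against a group at 0 is set by the fit's prior count, Pou4f1 and Meis2 are given from a fit without the Lpl group, chosen after the data had been seen. There Pou4f1 was higher in Nwd2-marked neurons than in the other 3 groups by 5.33 ± 0.17 on the log2 scale (edgeR adjusted p = 2.8e-27). A Pou4f1 UMI was seen in 13.3% ± 6.02 (SD, n = 10) of Nwd2-marked neurons thinned to 2000 UMIs in 0.286% ± 0.61 of C1ql3-marked ones and in 0.459% ± 0.52 of astrocytes.

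Meis2 was highest in the Gad2-marked neurons but varied widely between libraries. The 4 male libraries held 2.56, 34.7, 207 and 20.2 CPM and the 4 female libraries with at least 10 such nuclei 206, 588, 181 and 259. Male library 3 alone lay within the female range, and the Gad2-marked sums hold only 12 to 94 nuclei each. In the fit without the Lpl group, Meis2 was higher in Gad2-marked neurons by 5.75 ± 0.38 on the log2 scale (edgeR adjusted p = 8.7e-15). C1ql3-marked neurons stayed between 0 and 1.47 CPM and Nwd2-marked neurons at a median of 0.235. The Adarb2-marked sums ran from 0 to 49.0 CPM (median 6.84), and their highest value was again male library 3. The fit over all 5 groups called Meis2 higher in Adarb2-marked neurons, at 2.89 ± 0.90 on the log2 scale (edgeR adjusted p = 0.013), a contrast that holds the Lpl group at 0, and the fit without that group gave 0.98 ± 0.40 (edgeR adjusted p = 0.039). Without male library 3 the 5-group value was -0.29 ± 0.51 (edgeR adjusted p = 0.69). Of the Adarb2-marked nuclei, 102 lay in the deposited Gad2-led cluster. With only nuclei whose marker and deposited cluster agree, Meis2 was at 1.21 ± 1.05 CPM (SD, n = 10) in the Adarb2 group. The direction turned there, with a log2 difference of -2.51 ± 0.44. The clusters were made from counts that include Meis2, so this value is a description and no separate test.

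Counted over the 5-group fit, 3 of the 8 members were higher in C1ql3-marked neurons, where 9.95% of the 14529 genes tested were called higher, and 1 was lower against 3.65% of all genes. In Adarb2-marked neurons 4 were higher, Meis2 included, against 10.2%, and none lower against 6.95%. In Gad2-marked neurons 1 was higher against 6.14% and 2 lower against 2.36%, in Nwd2-marked neurons 1 was higher against 18.8% and 4 lower against 16.8%, and in Lpl-marked neurons, with 2 libraries, none was called against 1.74% and 0.592%. The median log2 difference of the members was 0.23 in C1ql3-marked, 0.49 in Adarb2-marked, 0.15 in Gad2-marked and -0.89 in Nwd2-marked neurons. The medians over all genes were 0.07, -0.0018, 0.02 and 0.08.

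**Figure D2:**
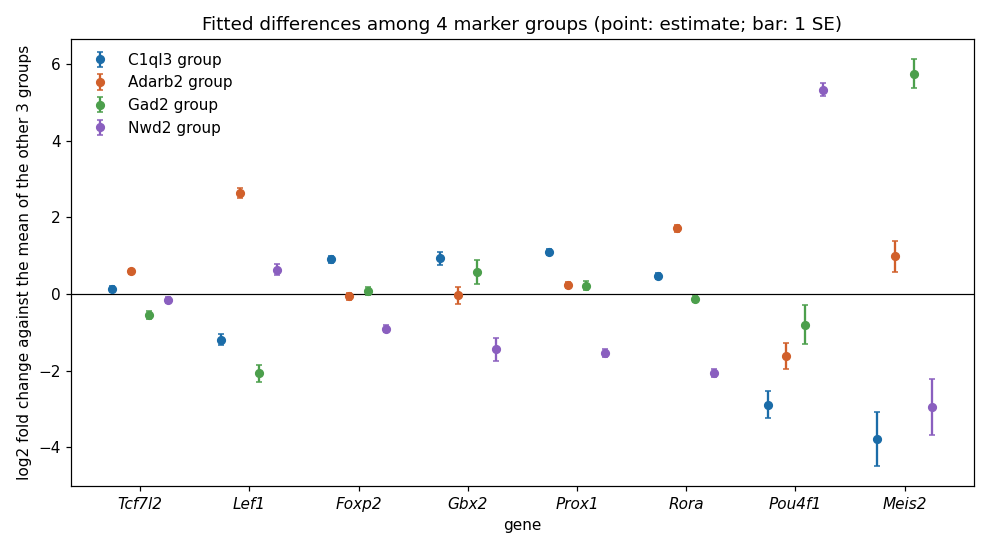
Log2 fold change of each gene in 4 marker groups against the mean of the other 3, from the fit without the Lpl group, with points for estimates and bars for 1 SE. Lef1 lies at 2.64 in the Adarb2 group and -2.08 in the Gad2 group, and Pou4f1 at 5.33 in the Nwd2 group.

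The deposited clusters gave a finer view, described without tests since the clusters were made from these counts. The C1ql3-led clusters were 1, 2 and 4, and Lef1 fell apart among them, at 104 ± 12.7 CPM (SD, n = 10) in cluster 1, 24.2 ± 10.5 in cluster 2 and 6.66 ± 6.60 in cluster 4. Cluster 1 was above cluster 2 in 10 of 10 libraries and cluster 2 above cluster 4 in 9 of 10. Rora followed, at 2306 ± 381, 1841 ± 426 and 1033 ± 270.3 CPM, in the same order in 10 of 10 libraries. Foxp2 ran the other way, at 918 ± 90.1, 1190.1 ± 149 and 1436 ± 264 CPM, with cluster 4 above cluster 1 in 10 of 10 libraries. Prox1 did not follow either order, with 212 ± 28.0, 148 ± 20.7 and 201 ± 29.0 CPM, and Tcf7l2 was at 725 ± 45.7, 734 ± 57.2 and 619 ± 69.9.

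The Adarb2-led clusters 3 and 8 differed as well, also in the markers. A cluster was called led by the marker that was highest relative to its mean over the clusters. Adarb2 was at 2069 ± 477 CPM in cluster 3 but 386 ± 74.3 in cluster 8, near the 387 ± 86.6 of the Lpl-led cluster 7. C1ql3 was at 21.1 ± 10.8 CPM in cluster 3 and 118 ± 35.3 in cluster 8. Lef1 was at 668 ± 98.3 CPM in cluster 3 and 280.1 ± 64.3 in cluster 8, with cluster 3 higher in 10 of 10 libraries by a median ratio of 2.35. Rora was at 4362 ± 435 and 3023 ± 354 CPM, also higher in cluster 3 in 10 of 10. In the Lpl-led cluster 7 Lef1 was at 178 ± 63.6, Rora at 2385 ± 374, Foxp2 at 798 ± 115 and Prox1 at 68.1 ± 24.7 CPM. This cluster had at least 10 nuclei in all 10 libraries, where the marker split gave 2, and its Prox1 level was near that of the Lpl-marked sums.

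Meis2 was at 131 ± 94.6 CPM (n = 9) in the Gad2-led cluster 5 and at most 4.95 in any library of the other clusters. Pou4f1 was at 94.7 ± 52.2 CPM (n = 10) in the Nwd2-led cluster 6 and at most 6.05 elsewhere. Cluster 5 also had the lowest mean Tcf7l2, at 384 ± 73.7 CPM, and its Prox1, at 40.5 ± 20.9, was below the 124 ± 42.0 of the Gad2-marked neurons. In cluster 6 Rora was at 444 ± 207, Prox1 at 37.9 ± 24.0 and Foxp2 at 312 ± 128 CPM. Rora, at 1228 ± 303 CPM, and Foxp2, at 547 ± 238, in cluster 5 were within 1 SD of the Gad2-marked means of 1476 ± 446 and 709 ± 316. Of the Gad2-marked nuclei, 30, 35 and 58 lay in the C1ql3-led clusters 1, 2 and 4. The Gad2 group of nuclei whose marker and deposited cluster agree had 3 libraries. Its Foxp2 was at 285 ± 190 CPM (SD, n = 3), Rora at 858 ± 289 and Prox1 at 38.9 ± 11.8. There the log2 differences of the 3 genes from the other groups were -1.35 ± 0.28, -0.64 ± 0.21 and -1.43 ± 0.31. These nuclei were chosen in part by clusters made from the same counts, so the values are a description and no p-value is given. In the 5-group fit Foxp2, Rora and Prox1 were at -0.05, -0.27 and 0.34, and none was called. The part that nuclei of C1ql3-led clusters have in the Gad2-marked levels was not tested.

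**Figure D3:**
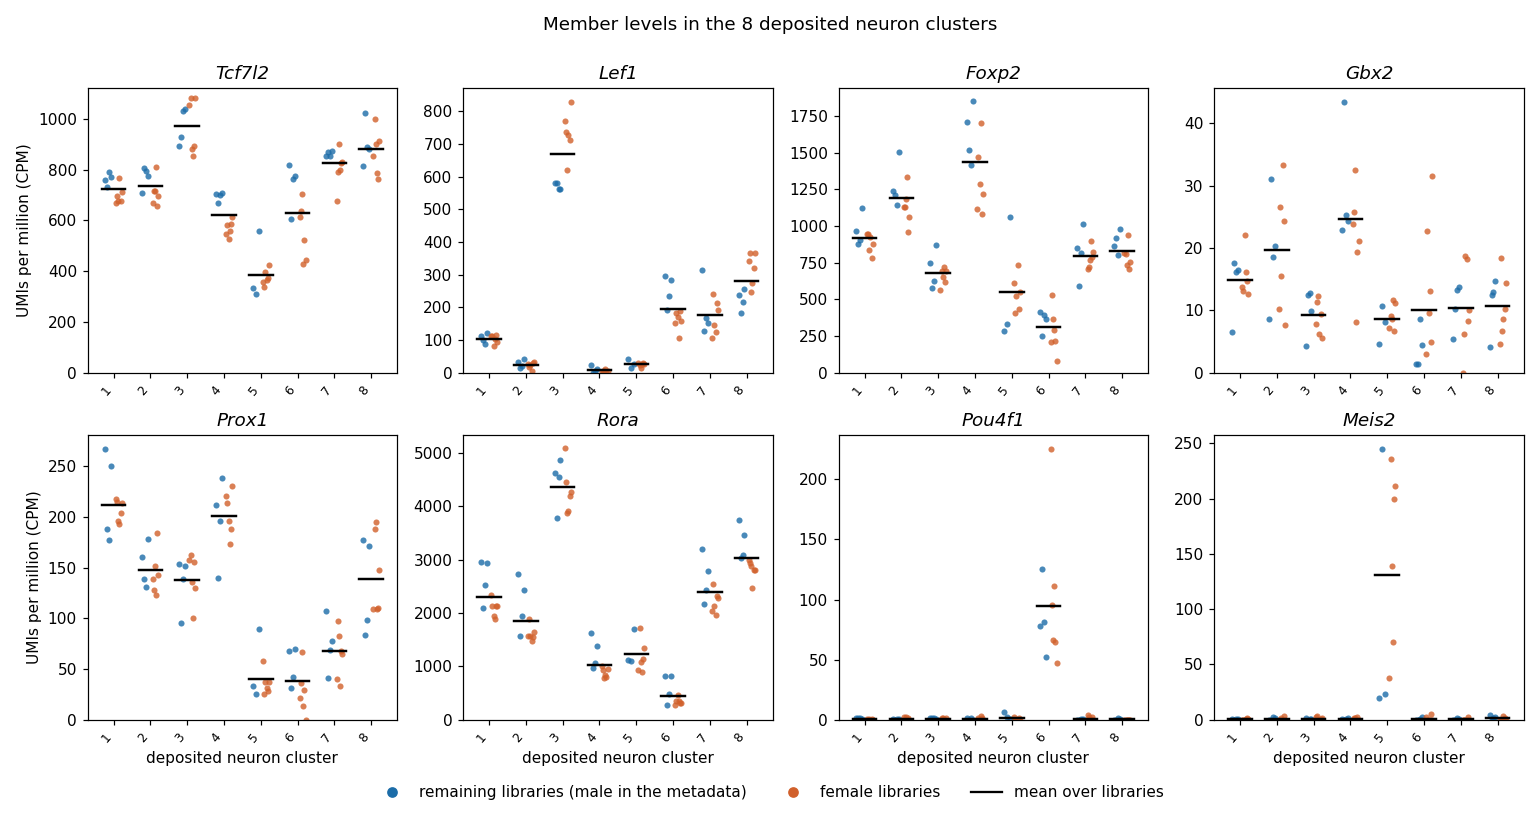
Levels of the 8 genes, in UMIs per 1000000 (CPM), in the 8 deposited neuron clusters on the x axis, with 1 point per library (blue male, orange female) and a bar at the mean. Across clusters 1, 2 and 4, Lef1 and Rora step down while Foxp2 steps up, and Meis2 and Pou4f1 are each high in a single cluster.

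Lef1 and Foxp2 were set side by side in single nuclei, in a split chosen after the data had been seen and given without a test. Of the C1ql3-marked neurons, 92.4% lay in clusters 1, 2 and 4. The split therefore carries the order among those clusters and is no separate evidence, and the subset given last pools the same clusters. C1ql3-marked neurons thinned to 5000 UMIs were divided into 873 with a Lef1 UMI and 3151 without. Foxp2 had a mean over libraries of 4.16 ± 0.63 UMIs per nucleus (SD, n = 10) with a Lef1 UMI and 5.69 ± 0.50 without, and was lower with a Lef1 UMI in 10 of 10 libraries. Rora had 11.5 ± 1.73 and 9.28 ± 1.42 UMIs, and was higher with a Lef1 UMI in 10 of 10. Tcf7l2, at 3.63 ± 0.29 and 3.53 ± 0.23, was higher in 6 of 10 libraries. Adarb2 itself had 0.247 ± 0.15 UMIs with a Lef1 UMI and 0.140 ± 0.07 without. Within the nuclei that also lay in C1ql3-led clusters, Foxp2 was at 4.22 and 5.76 UMIs and Rora at 11.3 and 9.18, again in the same direction in 10 of 10 libraries, while Adarb2 was at 0.129 and 0.0864.

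**Figure D4:**
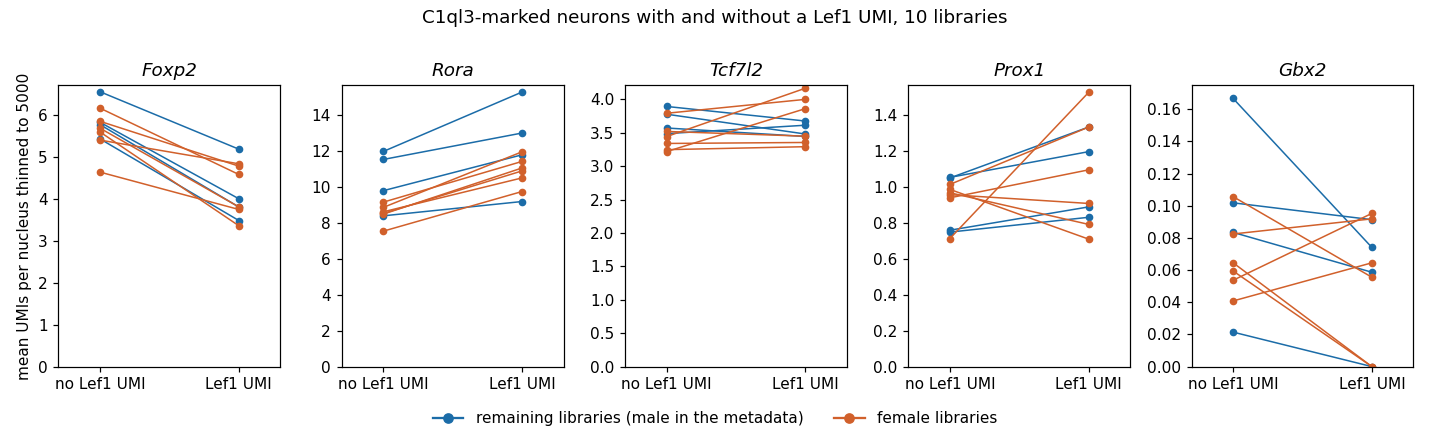
Mean UMIs per nucleus, after thinning to 5000, in C1ql3-marked neurons without and with a Lef1 UMI, with 1 line per library (blue male, orange female). The lines for Foxp2 fall and those for Rora rise in all 10 libraries, while those for Tcf7l2, Prox1 and Gbx2 go both ways.

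Across the 8 cell types, Lef1 and Foxp2 each had a second high type outside neurons. Lef1 ran from 614 to 1625 CPM in the 7 endothelial sums (median 835), above the neuronal range of 164 to 298 (median 233), and was the highest type in all 7 libraries. Its log2 difference from the mean of the other types was 4.48 ± 0.20 in endothelial cells (edgeR adjusted p = 1.9e-31) and 2.38 ± 0.16 in neurons (edgeR adjusted p = 1.4e-22). Its medians in astrocytes, oligodendrocytes, oligodendrocyte precursors, microglia and ependymal cells were 7.78 to 21.4 CPM, and all 5 types were called lower, although the ependymal value turned to 0.40 with nuclei under 1% mitochondrial UMIs. Fibroblasts were not called for Lef1, at 0.70 ± 0.41 (edgeR adjusted p = 0.22). Their share of UMIs, without the trimmed-mean scaling, was a median 74.3% of the neuronal one, from 13.4% to 122.5% over 8 libraries. Neurons minus fibroblasts gave a log2 difference of 1.47 ± 0.37 (edgeR adjusted p = 0.00054). A Lef1 UMI was seen in 83.7% ± 17.5 (SD, n = 6) of endothelial nuclei thinned to 2000 UMIs.

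Foxp2 had 493.2 to 1627 CPM in fibroblasts (median 1206) and 831 to 1622 in neurons (median 1137), which overlap, and neurons minus fibroblasts gave a log2 difference of -0.05 ± 0.28 that did not pass (edgeR adjusted p = 0.91). Its log2 difference from the mean of the other types was 2.86 ± 0.22 in fibroblasts and 2.81 ± 0.17 in neurons (edgeR adjusted p = 1.1e-18 and 3.6e-25). As a share of UMIs without the trimmed-mean scaling, the fibroblast level was a median 162% of the neuronal one. Median levels in the other types were 51.5 to 212 CPM.

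Genes of neurons were also counted at low levels in the 7 other types, as a share of UMIs relative to the share in neurons. The median was 14.4% to 29.0% for Slc17a6, a gene of glutamatergic neurons, 9.82% to 28.5% for Snap25, 3.99% to 19.2% for Syt1 and 0% to 18.0% for Rbfox3. Lef1 was at 3.34% to 12.0% in the 5 glial and ependymal types. It was below Slc17a6 and Snap25 in each of them, and above Syt1 in astrocytes (7.18% against 5.15%) and in microglia (12.0% against 11.7%). Foxp2 was at 7.22% in astrocytes, 8.52% in oligodendrocytes, 15.4% in precursors, 15.3% in microglia, 21.3% in ependymal cells and 7.59% in endothelial cells. Apart from ependymal cells these were below Slc17a6 and Snap25 in the same type, but Foxp2 was above Syt1 in all of these types but oligodendrocytes. In ependymal cells Foxp2 was above all 4 neuronal genes. The part of free neuronal RNA in the low Lef1 and Foxp2 levels was not tested.

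Tcf7l2, Rora and Prox1 were each high in a glial type as well as in neurons. Tcf7l2 had 674 to 1196 CPM in astrocytes (median 846) and 766 to 1089.6 in neurons (median 923), and the 2 types did not pass the test against each other (log2 difference 0.13 ± 0.16, edgeR adjusted p = 0.48). The other 6 types had medians of 205 to 453 CPM. Tcf7l2 was higher than the mean of the other types in neurons by 1.31 ± 0.11 and in astrocytes by 1.16 ± 0.12 on the log2 scale (edgeR adjusted p = 5.0e-17 and 4.0e-14).

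Rora was the highest in astrocytes in 9 of 10 libraries, at 2252 to 6455 CPM (median 3206) against 2137 to 3845 in neurons (median 2846), and neurons minus astrocytes gave -0.28 ± 0.20 on the log2 scale, which did not pass (edgeR adjusted p = 0.20). Oligodendrocyte precursors (median 2302), ependymal cells (2135) and fibroblasts (1895) were also high in Rora, while oligodendrocytes (378) and microglia (298) were low. Rora was called lower in oligodendrocytes, at -2.09 ± 0.18, and in microglia, at -2.19 ± 0.19 on the log2 scale (edgeR adjusted p = 1.2e-16 and 5.6e-17). A Rora UMI was present in 98.1% ± 1.54 (SD, n = 10) of astrocytes thinned to 2000 UMIs and in 39.2% ± 10.9 of oligodendrocytes.

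Prox1 was highest in oligodendrocytes in 9 of 10 libraries, at 155 to 325 CPM (median 249), and ran from 136 to 258 in neurons (median 195). The type contrast was 2.06 ± 0.12 in oligodendrocytes and 1.64 ± 0.11 in neurons (edgeR adjusted p = 1.2e-24 and 6.5e-22). Neurons minus oligodendrocytes gave -0.36 ± 0.14 (edgeR adjusted p = 0.015), under the fold needed for a call. Oligodendrocyte precursors had a median of 62.4 CPM and astrocytes of 46.3, and Prox1 was called lower in astrocytes, endothelial cells and fibroblasts. After thinning, a Prox1 UMI was seen in 31.9% ± 5.92 of oligodendrocytes, 22.7% ± 3.24 of neurons and 6.66% ± 1.93 of astrocytes (SD, n = 10 each).

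**Figure D5:**
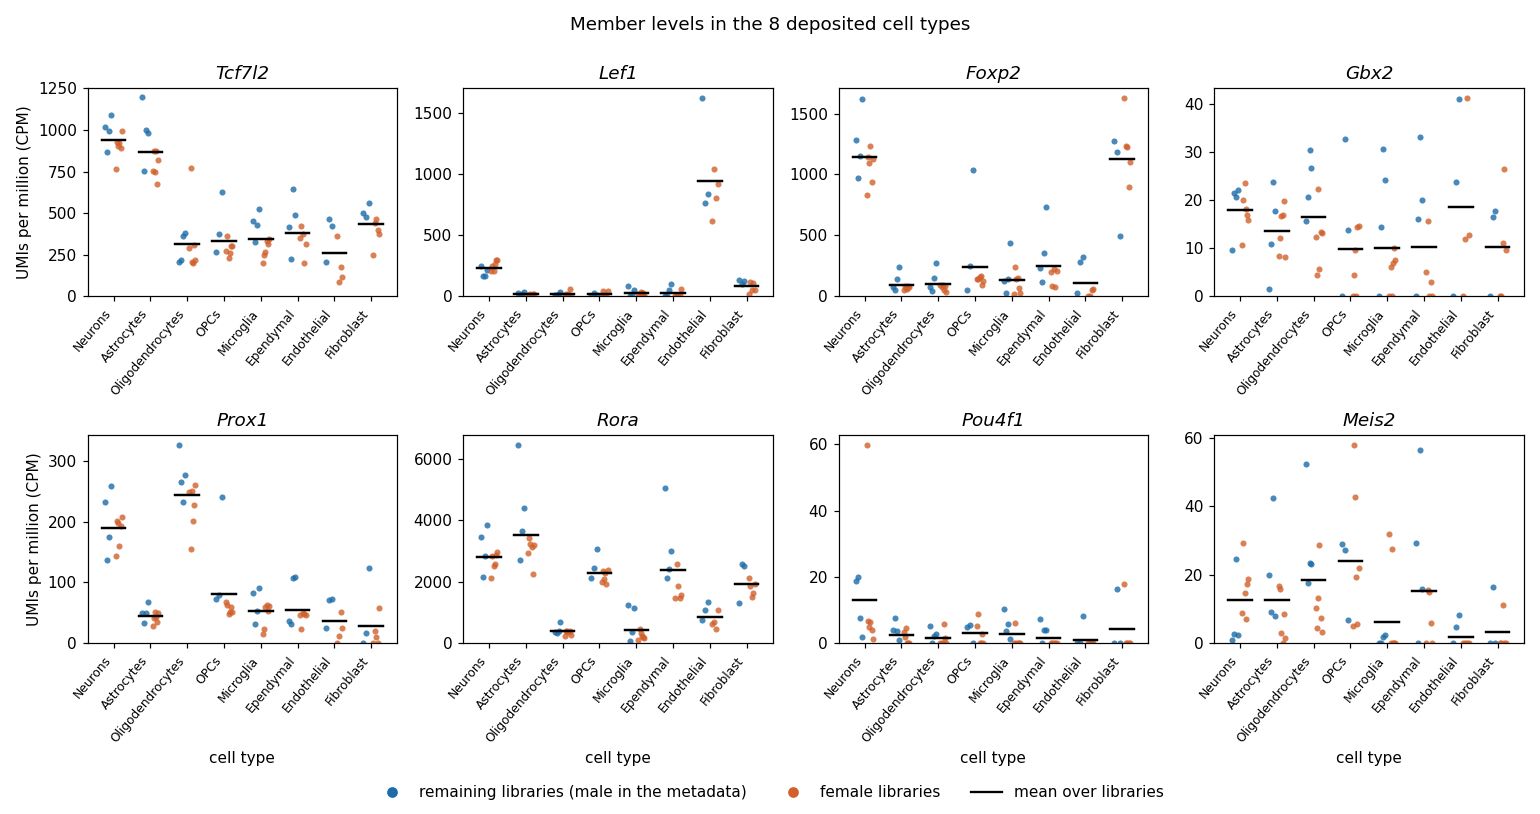
Levels of the 8 genes, in UMIs per 1000000 (CPM), in the 8 deposited cell types on the x axis, with 1 point per library (blue male, orange female) and a bar at the mean. Lef1 is highest in endothelial cells, the Foxp2 ranges of fibroblasts and neurons overlap, Prox1 is highest in oligodendrocytes, and Tcf7l2 and Rora are high in both neurons and astrocytes.

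Gbx2, Pou4f1 and Meis2 did not pass the filter on low counts in the cell-type fit, so 5 of the 8 members were tested there, and all 5 were called higher in neurons against 34.8% of the 9842 genes tested, and none lower against 23.4%. In astrocytes 2 of the 5 were higher, against 21.5% of all genes, and 3 lower, against 19.7%. In oligodendrocytes 1 was higher against 20.5% and 4 lower against 26.2%. In precursors 1 was higher against 20.1% and 1 lower against 13.3%, and in microglia none was higher against 21.3% and 3 lower against 29%. In ependymal cells 1 was higher against 26.7% and 1 lower against 19.2%. In endothelial cells 1 was higher against 17.4% and 4 lower against 22.9%, and in fibroblasts 2 were higher against 10.7% and 1 lower against 11.5%. The 4 lower calls in endothelial cells, all but Lef1, were lost in sums of at least 20 nuclei, where Foxp2 was at -0.58 and Tcf7l2 at -0.31 on the log2 scale. Without the filter Gbx2 was higher in neurons by 0.73 ± 0.17 and Pou4f1 by 2.13 ± 0.25 on the log2 scale (edgeR adjusted p = 7.4e-05 and 7.0e-14), and Meis2 did not pass in neurons, at 0.49 ± 0.31. Meis2 was called higher there in oligodendrocytes, at 1.18 ± 0.36, and in precursors, at 1.32 ± 0.43 (edgeR adjusted p = 0.0063 and 0.020), and was not called in any other type. Gbx2 in other types was at a median 47.8% to 124% of its neuronal share of UMIs, above the span of Slc17a6 and Syt1, and its counts outside neurons were 6 to 251 UMIs per type.

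Other genes of the same families and pathways were counted in the 5-group neuron fit. That fit holds the Lpl group with 2 libraries, and the fold of any gene with no UMI there is set in part by the prior count. Of 12 relatives, 9 were tested, and Rorb and Foxp1 were higher in C1ql3-marked neurons, at 1.37 ± 0.13 and 0.61 ± 0.09 on the log2 scale (edgeR adjusted p = 1.6e-11 and 5.6e-07), where 9.95% of all genes were called higher. The same 2 were lower in Nwd2-marked neurons, at -2.91 ± 0.17 and -0.75 ± 0.10 (edgeR adjusted p = 1.3e-19 and 2.1e-08), where 3 of the 9 were higher, among them Tcf7 at 5.45 ± 0.47 and Foxp4 at 1.38 ± 0.17 (edgeR adjusted p = 1.8e-13 and 2.5e-09). The shares over all genes in Nwd2-marked neurons were 18.8% higher and 16.8% lower. None of the 9 was called in Adarb2-marked neurons, against 10.2% higher and 6.95% lower.

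Of 21 Wnt pathway genes that act with TCF/LEF factors, 20 were tested. In Adarb2-marked neurons, where Lef1 and Tcf7l2 were highest, 1 was higher, against 10.2% of all genes, and 3 lower, against 6.95%. The one higher was Lgr5, an R-spondin receptor, at 2.80 ± 0.68 (edgeR adjusted p = 0.0012), and the co-repressors Tle4 and Tle1 and the co-activator Bcl9 were lower, at -0.70 to -0.59. In Nwd2-marked neurons 4 of the 20 were higher, near the 18.8% of all genes, and 1 lower, against 16.8%. Those higher were led by Lgr5 at 2.27 ± 0.95 and Tle4 at 2.11 ± 0.17, and the one lower was the pathway inhibitor Nkd1, at -2.20 ± 0.29. The median log2 difference of the 20 was 0.09 in C1ql3-marked, 0.07 in Adarb2-marked and 0.02 in Nwd2-marked neurons, near the all-gene medians given above.

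Pou4f1 had company in the Nwd2-marked neurons. Of 16 other thalamic and habenular factors 14 were tested, and 11 were higher there and 1, Lhx2, lower, against 18.8% and 16.8% of all genes. The largest were Irx2, at 6.37 ± 0.28, Irx1, at 5.72 ± 0.36, Nr4a2, at 5.52 ± 0.16, and Lmo3, at 5.10 ± 0.18 on the log2 scale, with edgeR adjusted p values from 3.0e-31 to 1.6e-18. The list was chosen with earlier results of these data known, and a gene low elsewhere can pass the filter through the Nwd2-marked sums. The count is therefore a description. Of the 6 cofactors of the Meis and Pbx family, all 6 were tested and 5 were higher there, against the same 18.8%, led by Pbx3 at 2.94 ± 0.18 and Pbx4 at 1.92 ± 0.13. In the Gad2-marked neurons, with Meis2, 5 of 6 tested prethalamic and GABAergic factors were higher, against 6.14% of all genes, among them Dlx1 at 4.45 ± 0.54 and Pax6 at 3.92 ± 0.40. Only 6 of the 13 factors of that list passed the filter, and a gene low elsewhere can pass it through the Gad2-marked sums, so this count is a description too. Meis1, the nearest relative of Meis2, was higher there as well, at 4.25 ± 0.82 (edgeR adjusted p = 0.00019).

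Genes with the most similar pattern to each member were ranked by Pearson correlation of mean log2(CPM + 1) over 12 groups, the 5 neuron groups and 7 other types, among 15318 genes. The points share libraries and depth, and the values are a description. Gad2 is itself one of the markers that made the groups, which in part fixes its likeness to a member high in the Gad2 group. For Pou4f1 they included Tac2 (0.98), Chrnb3 (0.97) and Tyrp1 (0.97), for Rora Thrb (0.91), A830082K12Rik (0.90) and Fam110b (0.89), and for Lef1 Igfbp7 (0.91), Gpr4 (0.91) and Amotl1 (0.88). For Foxp2 they included Vps13a (0.96), Aff3 (0.95) and Nr4a3 (0.94), for Prox1 Psen2 (0.95), Strn4 (0.93) and Elp5 (0.93), and for Tcf7l2 A330074K22Rik (0.93) and Vwa8 (0.93). Meis2 and Gbx2 had weaker partners, Npy (0.77), Gad2 (0.76) and Mhrt (0.76) for Meis2 and Wipi2 (0.88) and Vps37c (0.86) for Gbx2.

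No member differed between the female and the male libraries within a neuron group at an edgeR adjusted p under 0.05. In all, 0 of 25 tests passed by edgeR, also with DESeq2 size factors, and 5 had an unadjusted p under 0.05, among them Lef1 in Adarb2-marked neurons, higher in female libraries by 0.33 ± 0.10 on the log2 scale (edgeR adjusted p = 0.063). Rora in C1ql3-marked neurons was lower in female libraries, at -0.34 ± 0.12 (edgeR adjusted p = 0.075), and Lef1 in Nwd2-marked neurons was lower, at -0.61 ± 0.20 (edgeR adjusted p = 0.088). Of all genes, 5.66% were called higher and 6.32% lower in female libraries in C1ql3-marked neurons, 3.59% and 4.69% in Adarb2-marked, 1.94% and 2.54% in Gad2-marked and 3.1% and 3.81% in Nwd2-marked ones. Leaving out male library 3 brought Meis2 in Gad2-marked neurons to 4.24 ± 0.59 higher in female libraries (edgeR adjusted p = 0.00039), against 2.23 ± 0.78 with it (edgeR adjusted p = 0.24). Leaving out male library 2 brought Rora and Lef1 in Nwd2-marked neurons to -0.81 ± 0.19 and -0.72 ± 0.20 (edgeR adjusted p = 0.0086 and 0.021). Without the same library, Rora in C1ql3-marked neurons was at -0.43 ± 0.09 (edgeR adjusted p = 0.0031), under the fold needed for a call. Sex, depth per nucleus and the gene set counted change together between the 2 sets and cannot be told apart. The test of whether a group contrast differs between the sets had 6 of 32 unadjusted p values under 0.05 and none under 0.05 after adjustment in edgeR.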

How the data were processed

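The authors deposited UMI counts per gene and nucleus for 10 single-nucleus libraries (10x Genomics 3′ v3), with a metadata table of cluster names, sex, total counts and the percent of mitochondrial UMIs per nucleus. Per the labels, reads were processed with Cell Ranger 6.1.1 against mm10, while the study's methods name another version. The authors kept nuclei with at least 200 genes and at most 5% mitochondrial UMIs and removed doublets, per the methods, and no doublet caller was run here. Another 21 deposited metadata columns were not used.

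Counts were summed per library and cell type or marker group with at least 10 nuclei. Each neuron with over 1000 genes was assigned to the marker whose level, divided by its 99th percentile in that library, was highest. Sums were tested with edgeR 4.0.16 (R 4.3.3; trimmed-mean scaling, filterByExpr, library as a term, quasi-likelihood test), each group against the mean of the others, and called at a Benjamini-Hochberg adjusted p under 0.05 and an absolute log2 fold change over 0.5. SEs were taken from the F statistic. The fit recovered 88 of 100 genes changed by a log2 fold of 1 in simulated counts for the Adarb2 contrast (13058 genes) and 100 of 100 changed by 2. No source gives the pooling of the female libraries, and p-values measure the spread between libraries, which may be in part technical. DESeq2 1.42.0 was an alternative. Shares used nuclei thinned to 2000 UMIs. The 8 genes, the gene lists and the rule for naming were chosen with earlier results of these data known: all 8 members, 2 to 4 called genes of largest change per list, and the 3 genes most alike each member. Some genes that this rule names are not reported here.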

Additional observations from a re-analysis of the deposited data

Results flagged for a closer look

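In each marker group but Lpl, member levels were compared within the 4 male and within the female libraries (6, or 4 for Gad2). In 10 of 64 such sets a library stood apart from the rest by Dixon's criterion. Normally distributed values would meet it in about 1 of 20 by chance. That rate need not hold for Pou4f1, Meis2 and Gbx2, with few UMIs and values at or near 0, so the count is no measure of excess over chance. In the Gad2-marked neurons, Lef1 was at 11.8 CPM in male library 3 against 66.6 in the nearest of the others, and Meis2 was at 207 CPM in the same library against 34.7. Male library 3 also had Meis2 at 49.0 CPM in the Adarb2-marked neurons against 2.09 in the nearest. Pou4f1 in Gad2-marked neurons was at 9.46 CPM in male library 2 and at 9.07 in female library 3, on 3 UMIs and 1 UMI. Pou4f1 was at 178 CPM in Nwd2-marked neurons of female library 1 against 88.6 in the nearest, and at 7.77 CPM in its Adarb2-marked neurons. Meis2 was at 26.1 CPM in Nwd2-marked neurons of female library 4, on 5 UMIs, and Prox1 was at 94.6 CPM in its Adarb2-marked neurons against 127 in the nearest. Gbx2 was at 3.85 CPM in Adarb2-marked neurons of male library 1.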

How the results depend on the processing

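The 5-group neuron fit made 16 calls among 40 tests of members, and leaving out 1 library at a time gave 16 to 21. Other settings of scaling, filter, test, library set and marker threshold gave 14 to 22 calls. With nuclei whose marker and deposited cluster agree the count rose to 27 of 32, and without the Lpl group it was 21 of 32, both chosen after seeing the data. The agreeing nuclei were chosen in part by clusters made from the same counts, so that rise is no independent support. The cell-type fit made 30 calls of 40, and 20 to 34 under the alternatives. Meis2 in Adarb2-marked neurons reversed, to -0.046 in female libraries only, -0.29 without male library 3 (range with 1 library left out -0.29 to 3.21), -2.51 with agreeing nuclei and -1.08 with the deposited clusters. Male library 3 had the most Meis2 UMIs in that group. Lef1 in ependymal cells reversed to 0.40 with nuclei under 1% mitochondrial UMIs, and the cause was not tested. The share of nuclei with a Lef1 UMI moved without thinning to 30.5% in C1ql3-marked and 79.6% in Adarb2-marked neurons. The female against male comparison made 0 calls and 0 to 2 when 1 library was left out. A replicate block gave 0 calls too, and replicate numbers showed no pairing, with correlations of deviations from -0.37 to 0.10. Depth limits Gbx2, Pou4f1 and Meis2, with few UMIs per sum, and the Lpl and Gad2 groups, with few nuclei.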
